A study of Mus musculus with 12 samples.

Results

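The 7 genes Myh3, Myh8, Myh1, Myh2, Myh4, Myh13 and Myh7 encode the sarcomeric myosin heavy chains of skeletal muscle, and all 7 were present among the 16335 genes measured by RNA sequencing in mouse sarcomas. The members were taken by name. The tumors came from BVMA01R, a single sarcoma line with the genotype Myf5-Cre;p53-/-;Ass1-/-, in which Cre is driven from Myf5, a gene of the muscle lineage. They were grown in female C57BL/6J mice, and the animals' ages and the animal behind each tumor are not given in the sources used here. There were 4 treatment groups of 3 libraries each: ADI-PEG20 plus chloroquine, ADI-PEG20, chloroquine and no treatment. Every group therefore shared the deletions of p53 and Ass1. ADI-PEG20 is a pegylated arginine deiminase, which breaks down arginine, and ASS1 is an enzyme that cells need to make arginine from citrulline. Chloroquine blocks breakdown in lysosomes and with it autophagy. The groups ask how each drug and their combination changed the tumors. The labels do not say that replicates came from separate animals, so the p-values measure the spread between these samples only.

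Myosin heavy chain is the motor of the thick filament, and each muscle fibre type is known by the heavy chain that it makes. Myh3 (embryonic) and Myh8 (perinatal) are made in developing and regenerating muscle. Myh2 (type IIa), Myh1 (type IIx) and Myh4 (type IIb) are the adult fast chains, Myh13 is the very fast chain of extraocular muscle, and Myh7 is the slow (type I) chain shared with the heart. In muscle precursors the regulators Myf5 and Myod1 act before Myog, which marks entry into differentiation, and Myh3 is among the genes that then come on.

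In the GRCm38 annotation (mm10), 6 of the 7 genes lie on the plus strand of chromosome 11 in the order Myh3 (chr11:67078300-67102291), Myh2 (chr11:67171027-67197517), Myh1 (chr11:67200052-67224575), Myh4 (chr11:67238029-67260446), Myh8 (chr11:67277124-67308634) and Myh13 (chr11:67321658-67371586). Myh7 lies on the minus strand of chromosome 14 (chr14:54970684-54994626). The coding sequences are 5805 to 5826 bases long, so levels per kilobase of coding sequence can be set side by side. The starts of 5 coding sequences (GENCODE M21, bases 1 to 60, counted from the start codon) are given here because they show how near to one another the fast chains are; capitals mark bases that differ from Myh1.
Myh1: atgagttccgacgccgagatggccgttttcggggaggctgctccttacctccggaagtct
Myh2: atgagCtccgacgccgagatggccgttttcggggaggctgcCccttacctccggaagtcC
Myh4: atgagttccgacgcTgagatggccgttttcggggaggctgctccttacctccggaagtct
Myh13: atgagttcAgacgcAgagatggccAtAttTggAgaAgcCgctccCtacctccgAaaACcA
Myh3: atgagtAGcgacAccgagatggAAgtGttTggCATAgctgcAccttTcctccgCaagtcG
Over these 60 bases, Myh4 differed from Myh1 at 1 base, Myh2 at 3, Myh13 at 13 and Myh3 at 15. Of all stretches of 50 bases in the coding sequence, 31.6% in Myh1, 28.6% in Myh2, 22.7% in Myh8, 19.6% in Myh4 and 8.81% in Myh13 also occurred in transcripts of another gene. The share was 4.99% in Myh3. It was 30.3% in Myh7, shared mostly with the cardiac chain Myh6, which is not in the table. Myh1 shared most with Myh2, with an unbroken run of 268 identical bases. The read length and the treatment of reads that match several genes are not given in the sources used here, so the split of reads among Myh1, Myh2, Myh4 and Myh8, and between Myh7 and Myh6, is less certain than the level of Myh3. Antisense genes overlap Myh1 (Myhas), Myh2 (9430073C21Rik) and Myh7 (Mhrt among others); none of them is in the table, and whether the counting used strand is not given either.

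The windows around the RefSeq gene starts (GRCm38.p6, 250 bases before to 50 after) are printed for the 5 chains whose windows hold any of 3 shared stretches. Capitals mark the stretches that at least 4 of the members' windows share, found from common words of 8 bases by a rule set after reading the windows: AATANTTCTAATTATATCC, TCAAATTATNNATAG and TATAAAAG.
Myh1 (chr11:67199852-67200151, strand +): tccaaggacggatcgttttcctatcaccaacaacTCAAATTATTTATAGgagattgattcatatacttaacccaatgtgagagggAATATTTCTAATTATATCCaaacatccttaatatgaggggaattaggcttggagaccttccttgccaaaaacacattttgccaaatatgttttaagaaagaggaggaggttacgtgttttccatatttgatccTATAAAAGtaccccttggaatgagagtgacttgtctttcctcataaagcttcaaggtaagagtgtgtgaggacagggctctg
Myh2 (chr11:67170777-67171076, strand +): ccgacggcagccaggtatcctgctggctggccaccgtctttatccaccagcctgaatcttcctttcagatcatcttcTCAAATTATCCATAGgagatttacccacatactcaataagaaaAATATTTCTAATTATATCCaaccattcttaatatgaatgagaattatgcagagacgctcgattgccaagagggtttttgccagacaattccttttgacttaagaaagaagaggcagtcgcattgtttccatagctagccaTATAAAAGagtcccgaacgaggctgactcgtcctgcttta
Myh4 (chr11:67237562-67237861, strand +): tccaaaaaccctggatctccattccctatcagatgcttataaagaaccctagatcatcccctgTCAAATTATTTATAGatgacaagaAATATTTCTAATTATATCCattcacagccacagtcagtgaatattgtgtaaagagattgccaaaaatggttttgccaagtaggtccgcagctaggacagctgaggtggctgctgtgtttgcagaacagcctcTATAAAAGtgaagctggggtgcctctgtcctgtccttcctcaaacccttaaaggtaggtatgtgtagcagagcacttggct
Myh8 (chr11:67276874-67277173, strand +): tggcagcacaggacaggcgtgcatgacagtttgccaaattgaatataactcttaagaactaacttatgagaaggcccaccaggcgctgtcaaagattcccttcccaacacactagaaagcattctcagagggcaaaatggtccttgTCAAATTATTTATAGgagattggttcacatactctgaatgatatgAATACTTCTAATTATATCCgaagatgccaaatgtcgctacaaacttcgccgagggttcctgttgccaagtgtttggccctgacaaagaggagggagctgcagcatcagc
Myh3 (chr11:67078050-67078349, strand +): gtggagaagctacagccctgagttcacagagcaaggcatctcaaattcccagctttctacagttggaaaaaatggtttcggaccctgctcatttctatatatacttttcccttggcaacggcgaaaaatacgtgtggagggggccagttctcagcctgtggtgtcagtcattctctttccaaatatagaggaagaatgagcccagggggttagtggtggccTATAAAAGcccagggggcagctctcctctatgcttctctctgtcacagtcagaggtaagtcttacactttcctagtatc
Each of AATANTTCTAATTATATCC and TCAAATTATNNATAG, searched on both strands of 32851 windows, was found in 4 windows (0.0122%), those of Myh1, Myh2, Myh4 and Myh8. TCAAATTATNNATAG began 216 bases before the start in Myh1, 173 in Myh2, 187 in Myh4 and 104 in Myh8. Neither was in the windows of Myh3, Myh13 or Myh7. The Myh13 window begins at chr11:67326853, inside the gene as annotated above (from chr11:67321658), so the letters around that annotated start were not searched here. TATAAAAG, which holds the TATA letters, was in 1.7% of all windows and in those of Myh3, Myh1, Myh2 and Myh4. It began 29 bases before the RefSeq start in Myh3, 32 in Myh1 and 31 in Myh4. In Myh2 it lies past that start, at bases 261 to 268 of the window. The E-box CANNTG, the letters read by myogenic regulators of the Myod1 family, was in 72.3% of all windows and, of the members, in those of Myh3, Myh8, Myh4, Myh13 and Myh7. TATAAA was in 13.6% of all windows and in those of Myh3, Myh8, Myh1, Myh2 and Myh4. In Myh8 its 1 match lies on the other strand inside TCAAATTATNNATAG, as does 1 match each in Myh1 and Myh4. The M-CAT letters CATTCC were in 14.7% of windows and in those of Myh1, Myh4 and Myh7. The CArG box was in 1.63% of windows and in those of Myh4 and Myh13. In Myh13 that match, at bases 273 to 282 of the window, lies past the RefSeq start and within the coding sequence. The MEF2 site, searched only as CTA and TAG around a run of A or T, was in 0.557% of windows and in none of the members' windows. Looser spellings of it were not searched, so MEF2-type letters in these windows, shared stretches included, are not excluded. These matches describe the letters only.

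The libraries held 15501998 to 28410940 reads in genes, recovered from the deposited log2 CPM values (read counts scaled to the size of each library), and 1 read was worth 0.032 to 0.0794 CPM. All 7 members had reads in all 12 libraries, the fewest being 2 reads. ADI-PEG20 1 stood apart, with 22.8% of its reads on the non-coding gene Gm26917, followed by no treatment 2 with 16.4%; the other 10 libraries had 5.09% to 9.86%. The results below are therefore also given without those libraries where that alters them. No gene of the 16335, and none of the 7 members, passed an adjusted p of 0.05 in any of the 8 comparisons (limma over all 12 libraries, Benjamini-Hochberg adjustment). The values below are therefore descriptions and unadjusted results. In bulk tumor RNA, fewer muscle-like cells and less RNA per cell cannot be told apart, nor can RNA of tumor cells and of host muscle.

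Per kilobase of coding sequence, Myh3 was the leading chain in 8 of 12 libraries. Its level was 4.24, 5.27 and 3.79 log2 CPM in ADI-PEG20 plus chloroquine tumors, 8.03, 6.53 and 4.34 in ADI-PEG20 tumors, 8.25, 8.06 and 6.997 in chloroquine tumors, and 2.24, 4.60 and 7.91 in untreated tumors. The chloroquine tumors were uniformly high, the combination tumors uniformly low, and the ADI-PEG20 and untreated groups each held high and low tumors. Within the untreated group alone, Myh3 varied 50.7-fold, against 2.39-fold within the chloroquine group.

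Myh8, the perinatal chain, was at -1.46, 0.18 and 2.60 log2 CPM in ADI-PEG20 plus chloroquine tumors (8, 26 and 133 reads). It was at 4.24, 2.89 and 1.84 in ADI-PEG20 tumors, 4.24, 3.69 and 4.80 in chloroquine tumors, and 2.87, 2.23 and 4.29 in untreated tumors. The combination group held the low values, and its tumor 3 overlapped the ADI-PEG20 and untreated groups but stayed below every chloroquine tumor.

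Among the adult fast chains, Myh1 (type IIx) was the most abundant in 10 of 12 libraries. It was at 4.20, 4.90 and 4.95 log2 CPM in ADI-PEG20 plus chloroquine tumors, 7.95, 5.40 and 4.33 in ADI-PEG20 tumors, 6.90, 5.99 and 7.23 in chloroquine tumors, and 6.00, 2.71 and 7.52 in untreated tumors. The chloroquine tumors again lay above the combination tumors, and the untreated group spanned both. Myh2 (type IIa) was lower, at 0.72, 1.30 and 2.63 log2 CPM in ADI-PEG20 plus chloroquine tumors, 5.68, 2.78 and 1.58 in ADI-PEG20 tumors, 3.33, 2.08 and 6.16 in chloroquine tumors, and 3.94, 1.54 and 5.02 in untreated tumors. For Myh2 every group overlapped every other.

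Myh4, the type IIb chain of the fastest limb fibres, had the widest range of all. It was at -3.22, 0.76 and 3.03 log2 CPM in ADI-PEG20 plus chloroquine tumors (2, 39 and 179 reads) and at 10.02, 2.06 and 1.58 in ADI-PEG20 tumors (13041, 130 and 68 reads). It was at 4.46, 3.48 and 4.90 in chloroquine tumors (412, 239 and 611 reads) and at 9.93, 0.40 and 4.27 in untreated tumors (24352, 21 and 302 reads). One ADI-PEG20 tumor and 1 untreated tumor stood far above the other 10, so that group means of Myh4 rest on those 2 libraries. Its standard deviation (SD) over the 12 libraries was 3.76 on the log2 scale, the 100th percentile of all genes when rounded, where the median gene had 0.34.

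Myh13, the extraocular chain, was at 1.87, 2.11 and 1.94 log2 CPM in ADI-PEG20 plus chloroquine tumors, 3.15, 2.05 and 1.35 in ADI-PEG20 tumors, 4.05, 3.34 and 2.74 in chloroquine tumors, and 3.35, 1.66 and 4.53 in untreated tumors. It had the smallest spread of the 7, with an SD of 1.01, which still exceeded that of 92.8% of genes. Myh7, the slow chain, was scarce, at -2.38, -2.74 and -1.37 log2 CPM in ADI-PEG20 plus chloroquine tumors (4, 3 and 8 reads), 4.08, -0.84 and -1.43 in ADI-PEG20 tumors, 0.20, 0.55 and 0.14 in chloroquine tumors, and 1.17, 1.54 and -0.58 in untreated tumors. The combination tumors held the lowest values of Myh7 but overlapped the ADI-PEG20 group, whose tumor 1 was the highest of all with 213 reads.

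**Figure D1:**
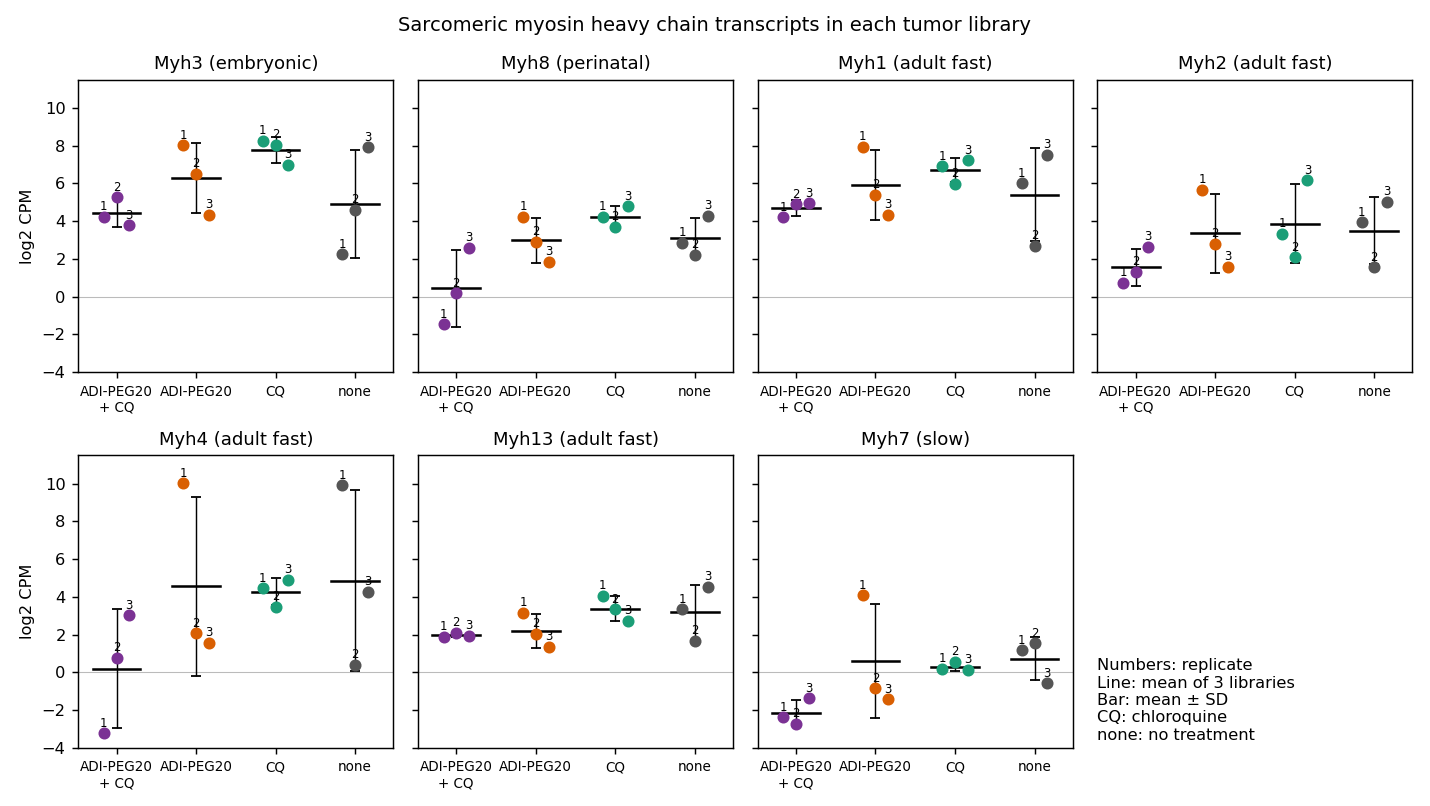
Log2 CPM of the 7 sarcomeric myosin heavy chains (vertical axis) in each library by treatment group (horizontal axis); points are libraries with their replicate number, lines are means of 3 and bars are ± SD. Myh3 reached 8.25 in a chloroquine tumor and 2.24 in an untreated tumor, and Myh4 stood near 10 in ADI-PEG20 1 and no treatment 1 alone.

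Per kilobase of coding sequence, Myh3 and Myh1 were the 2 most abundant chains in 10 of 12 libraries, with Myh3 leading in 8 and Myh1 in 2. Myh4 led in the other 2 libraries. In no treatment 1, Myh4 made up 90.4% of the members' reads (95% exact interval 90.0 to 90.7, counting error only) and Myh3 0.438%. In ADI-PEG20 1, Myh4 made up 63.2% of these reads (62.5 to 63.8), and Myh3 and Myh1 stood at 44.9 and 42.4 CPM per kilobase beside 178.1 for Myh4. Both tumors were rich in the adult type IIb chain, and they differed in the embryonic one, which was at 44.9 CPM per kilobase in ADI-PEG20 1 and 0.810 in no treatment 1. The developmental chains Myh3 and Myh8 together took 28.7% to 50.8% of the length-scaled reads in ADI-PEG20 plus chloroquine tumors, 17.1% to 63.2% in ADI-PEG20 tumors, 37.5% to 75.6% in chloroquine tumors and 1.11% to 63.4% in untreated tumors. Myh7 took under 1% in 10 libraries, 1.03% in ADI-PEG20 1 and 6.35% in no treatment 2, where it had 47 reads.

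**Figure D2:**
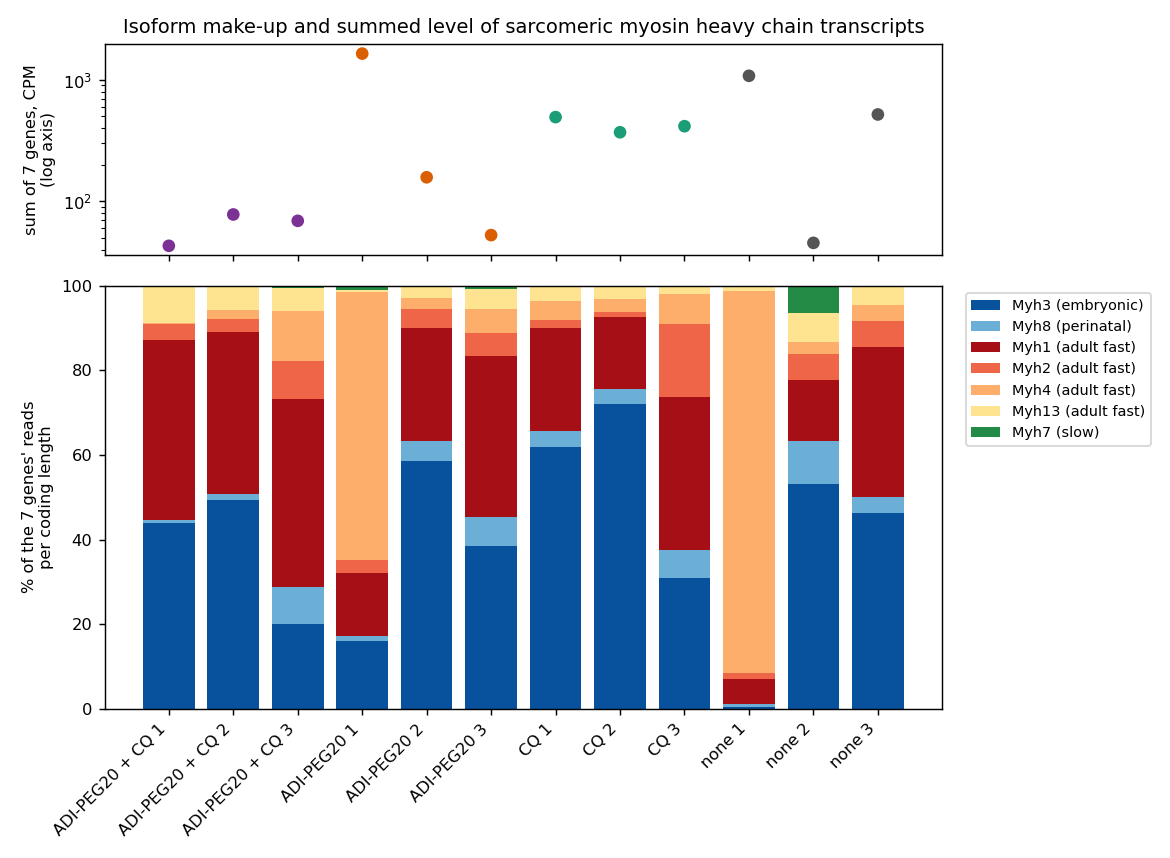
Share of the 7 genes' reads per coding length taken by each chain (lower panel, percent) and their summed CPM (upper panel, log axis) in each library. Myh4 takes 63.2% in ADI-PEG20 1 and 90.4% in no treatment 1, and Myh3 and Myh1 lead elsewhere; the 3 combination tumors have sums of 43.1 to 78.0 CPM and the 3 chloroquine tumors 369.8 to 492.8 CPM.

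The summed level of the 7 chains was 43.1 to 78.0 CPM in ADI-PEG20 plus chloroquine tumors, 52.8 to 1640 CPM in ADI-PEG20 tumors, 369.8 to 492.8 CPM in chloroquine tumors and 45.6 to 1077 CPM in untreated tumors. The lowest untreated and ADI-PEG20 tumors were thus at the level of the combination tumors. The highest sum was a 0.128% share of all reads.

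Of the other heavy chains of this myosin class in the table, the non-muscle ones Myh9 and Myh10 spanned a narrower range. Per kilobase, Myh9 was at 701.2 to 1008 CPM and Myh10 at 34.1 to 54.8 CPM over the 12 libraries, against 0.810 to 52.4 for Myh3. The smooth muscle chain Myh11 was at 1.13 to 5.82 CPM per kilobase, the non-muscle chain Myh14 at 0.0611 to 1.09 and Myh7b, a relative of Myh7, at 0.103 to 0.780. Myh9 was the highest heavy chain in every library, above Myh4 even where Myh4 was at 178.1.

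The members' profiles over the 12 libraries were compared after centring each gene on its own mean, by the root mean square (RMS) of the log2 differences. Myh1 and Myh2 were the closest pair (0.88), followed by Myh1 and Myh13 (0.92), Myh8 and Myh2 (1.08) and Myh8 and Myh1 (1.25). Myh3 and Myh4 were the farthest apart (3.76). The profiles were not scaled to each gene's own spread, so these distances carry the size of the swings as well as their shape. The RMS of a chain about its own mean was 3.6 for Myh4, 1.95 for Myh3, 1.49 for Myh1 and 0.96 for Myh13. Myh4, whose window holds AATANTTCTAATTATATCC and TCAAATTATNNATAG as do those of Myh1, Myh2 and Myh8, was at 2.51 to 2.74 from those 3. The embryonic and perinatal chains were 1.67 apart, farther than Myh3 was from Myh1 (1.48).

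**Figure D3:**
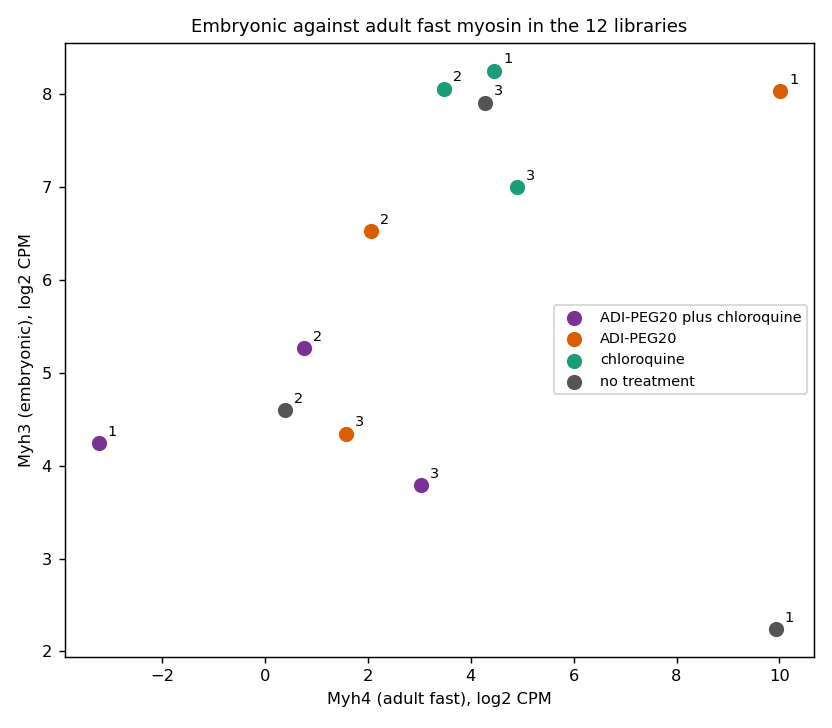
Log2 CPM of Myh3 (vertical axis) against Myh4 (horizontal axis), 1 point per library with its replicate number and colored by group. ADI-PEG20 1 is high in both chains, at 8.03 for Myh3 and 10.02 for Myh4, whereas no treatment 1 is high in Myh4 (9.93) and lowest in Myh3 (2.24).

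For each chain, the 3 genes with the smallest RMS difference were named from all other genes. These values too depend on a chain's own spread, so they cannot be ranked from 1 chain to another. Those of Myh3 were Tnnc1, the slow and cardiac troponin C (0.48), Casq2, a calcium store protein of slow and cardiac muscle (0.50), and the differentiation regulator Myog (0.52). Myog was at 1.61, 2.09 and 1.20 log2 CPM in ADI-PEG20 plus chloroquine tumors, 4.18, 3.76 and 2.12 in ADI-PEG20 tumors, 5.40, 4.67 and 3.50 in chloroquine tumors, and -1.002, 2.57 and 4.61 in untreated tumors. The tumor lowest in Myh3, no treatment 1, was also lowest in Myog. Those of Myh4 were genes of mature fast fibres: Atp2a1, the fast calcium pump (1.17), Ckm, the muscle creatine kinase (1.33), and Myot, a Z-disc protein (1.52). Ckm was at 6.33 log2 CPM in ADI-PEG20 1 and 6.41 in no treatment 1, and at most 2.05 in the other 10 libraries.

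For Myh8 they were Alpk3 (0.55), Trim72, a membrane repair protein of muscle (0.66), and Adprhl1 (0.71). For Myh1 they were Cacng1, a subunit of the muscle calcium channel (0.50), Klhl41 (0.51) and Hspb7 (0.62). For Myh2 they were Mybpc1, the slow myosin binding protein C (0.61), the oxygen store Mb (0.61) and the giant thin filament protein Neb (0.84). For Myh13 they were Igfbp5 (0.37), Lrtm1 (0.38) and Srl (0.44), and for Myh7 the muscle ion channels Cacna1s (0.92) and Scn4a (0.96) and Tppp (1.01). All are protein-coding genes.

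**Figure D4:**
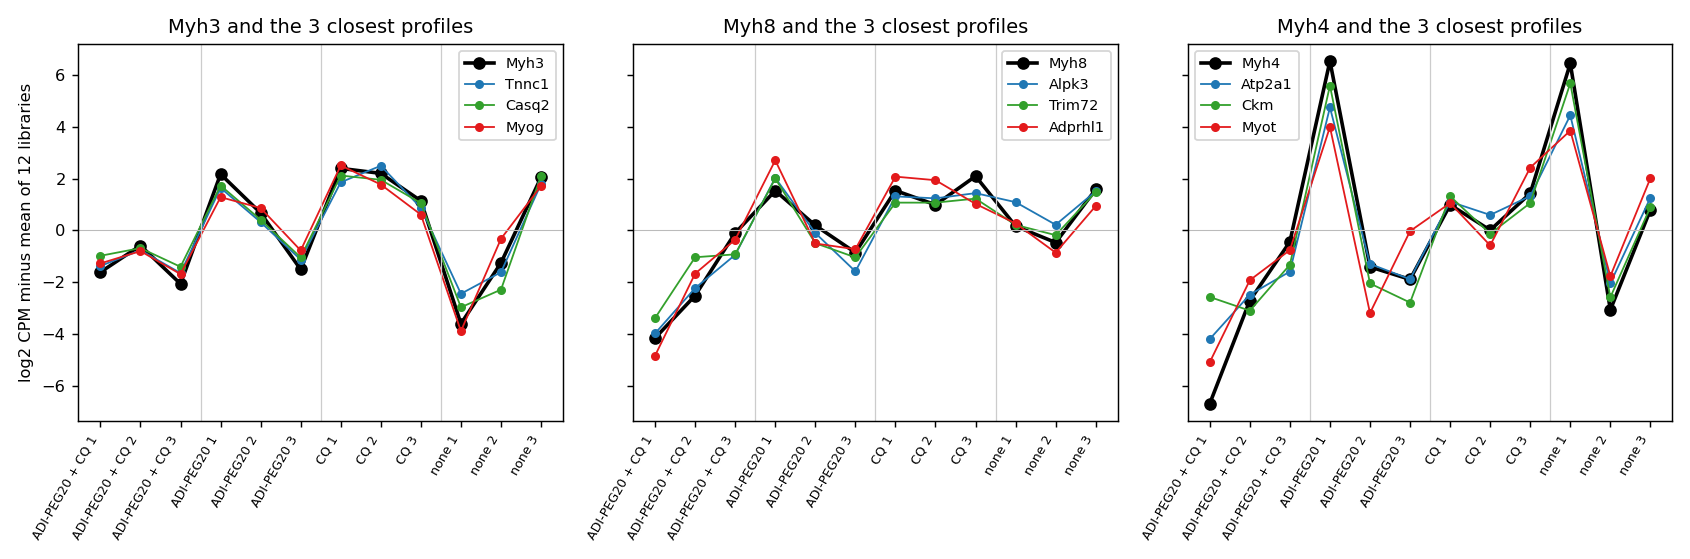
Log2 CPM minus each gene's mean over the 12 libraries (vertical axis) for Myh3, Myh8 and Myh4 (black) and the 3 genes closest to each (colors), by library. Myh3 and Myog dip together in no treatment 1, where Myog is at -1.002 log2 CPM, and Myh4, Atp2a1 and Ckm peak in ADI-PEG20 1 and no treatment 1.

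Between the combination and chloroquine alone, all 7 chains were lower in the combination, as were 48.6% of all genes at any p. Myh8 averaged 0.44 ± 2.04 log2 CPM in ADI-PEG20 plus chloroquine tumors and 4.25 ± 0.55 in chloroquine tumors (SD, n = 3 each), a difference of -3.80 (SE 0.86), or 14.0-fold lower, with limma's adjusted p = 0.5. Myh3 averaged 4.43 ± 0.76 in the combination and 7.77 ± 0.68 with chloroquine, a difference of -3.34 (SE 1.13), or 10.1-fold lower, with limma's adjusted p = 0.6. Myh13 (-1.41) and Myh7 (-2.46) also had unadjusted p under 0.05, so that 4 of 7 members did, where 6.78% of all genes did, 3.67% being lower. In 6 of 7 members, all but Myh2, the 3 combination tumors lay below all 3 chloroquine tumors; 18.4% of all genes had groups that did not overlap, 9.57% with the combination lower. The median difference of the 7 was -2.46, beside 0.01 over all genes. The members share libraries and vary together, so these counts are not independent.

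When the fit was limited to the 6 libraries of these groups, so that the spread came from them alone, Myh3 and Myh1 passed in limma with adjusted p of 0.012 and 0.034, among 72 genes called. The other 5 chains had adjusted p of 0.11 to 0.33. In the authors' deposited table for this comparison, Myh8 had a log2 fold change of -3.59 with an adjusted p of 0.094, and Myh3 -3.56 with an adjusted p of 0.13; the table calls 1 gene at 0.05.

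Other muscle genes were lower in the same comparison, without passing adjustment. Of 18 general sarcomere and fibre genes, 18 were lower and 10 had unadjusted p under 0.05 (median -2.49), led by Actn2, the muscle alpha-actinin of the Z-disc (-3.48), and Cacna1s, the voltage sensor of the muscle calcium channel. Of 13 genes of developing muscle in the table, 12 were lower and 9 had unadjusted p under 0.05 (median -2.60), with Actc1, the cardiac actin of embryonic muscle (-3.73), and Mybph (-2.70). All 11 fast fibre genes were lower, 6 with unadjusted p under 0.05 (median -2.53), led by Actn3 (-3.04) and the light chain Myl1 (-2.53). All 10 slow fibre genes were lower, again 6 with unadjusted p under 0.05 (median -1.95), led by Ankrd2 (-5.16) and the troponin Tnnt1 (-2.47).

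The regulators of muscle identity differed less as a list. Of 11 myogenic regulators, 10 were lower but the median was -0.25, and 2 had unadjusted p under 0.05, Myog (-2.89) and Myod1 (-2.50). Of 10 fibre type regulators, 10 were lower (median -0.33), 1 with unadjusted p under 0.05, Nfix (-0.77), a factor of the fetal muscle programme. Of 14 genes that fold, anchor or degrade myosin, 12 were lower and 4 had unadjusted p under 0.05 (median -1.53), led by the M-band protein Myom3 (-3.36) and Smyd1, which assists thick filament assembly (-2.86). Of the 5 other heavy chains, 4 were lower and 1, Myh11 (-1.15), had unadjusted p under 0.05.

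Markers of other tissues were read beside these values. The 8 fat cell markers in the table averaged 1.41 to 3.57 log2 CPM in ADI-PEG20 plus chloroquine tumors and 0.48 to 1.88 in chloroquine tumors, and 7 of 8 were higher in the combination (median 0.89; Lpl 1.63), 1 with unadjusted p under 0.05. All 6 keratinocyte markers were higher (median 1.23; Krt14 1.995) and 5 of 7 Schwann cell markers were higher (median 0.25; Pmp22 0.80), 1 in each list with unadjusted p under 0.05. All 7 smooth muscle markers were lower (median -0.73), 5 of them with unadjusted p under 0.05. They include Des, also among the general sarcomere and fibre genes, and Myh11, counted above among the other heavy chains. Several other genes stand in more than 1 of the muscle lists, so the counts of the lists are not independent. Of 4 cardiac markers in the table, 3 were lower (median -0.80), 2 with unadjusted p under 0.05, with Tnnt2, which developing skeletal muscle also makes, at -2.60; the defining cardiac markers Myh6, Myl7, Nppa and Nppb are not in the table. The part of the tissue make-up in the myosin values was not tested.

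**Figure D5:**
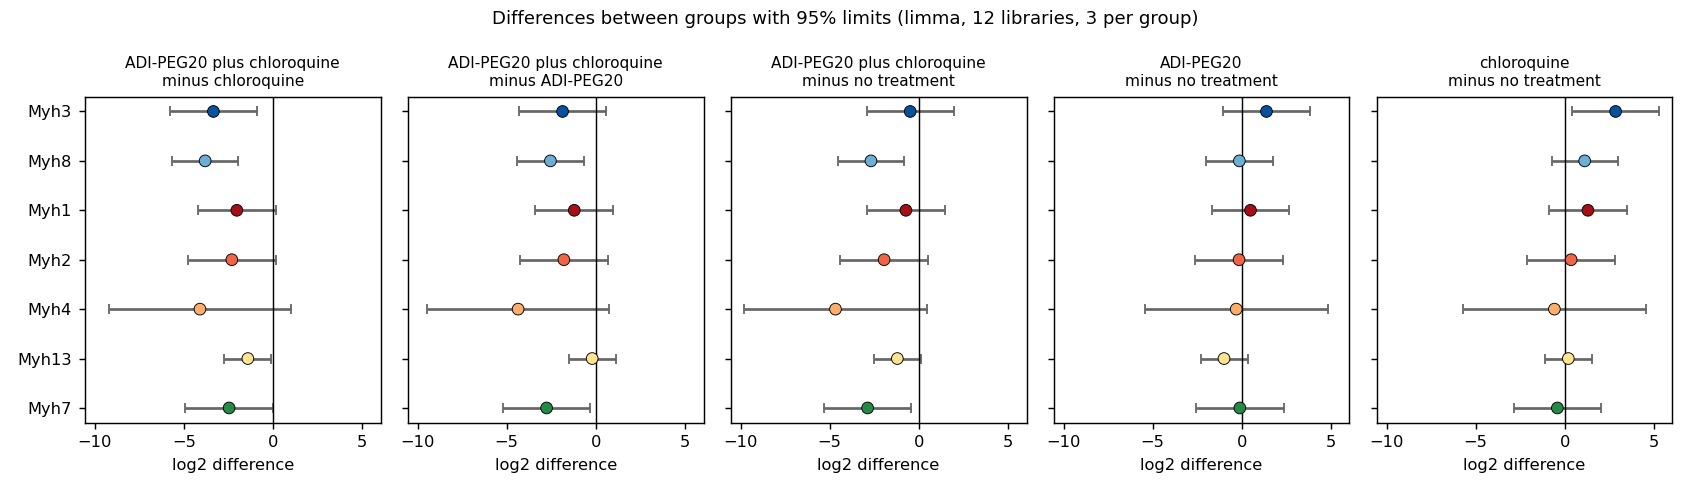
Log2 differences between groups for each chain (points) with 95% limits (bars), from limma over 12 libraries, 3 per group; each panel is 1 comparison, and values left of 0 are lower in the group named at the top of its title. All 7 chains are left of 0 in the 3 panels of the combination, with limits that exclude 0 for 4 of them against chloroquine, and the limits of Myh4 are the widest throughout.

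Against no treatment, the combination was lower in all 7 chains, as in 49.2% of all genes, with a median of -1.95 beside 0.01 over all genes. Myh8 averaged 0.44 ± 2.04 log2 CPM in combination tumors and 3.13 ± 1.05 in untreated tumors (SD, n = 3 each), a difference of -2.69 (SE 0.86) with limma's adjusted p = 0.44. Myh7 differed by -2.88 (SE 1.14) with limma's adjusted p = 0.53. These were the 2 of 7 members with unadjusted p under 0.05, where 8.65% of all genes had it. In the authors' deposited table, Myh13 (-1.52) had it as well, with an adjusted p of 0.39. Myh7 was the 1 member whose groups did not overlap, where 15.4% of all genes did not, 7.92% with the combination lower. Its reads were few, at 4, 3 and 8 in combination tumors and 56, 47 and 10 in untreated tumors. The lack of overlap thus rested on 8 against 10 reads, near the floor. Myh3 differed by -0.48 (SE 1.13), and its direction rested on no treatment 3: without that library the difference was 1.01. Myh1 differed by -0.73 (SE 1.01) and likewise by 0.33 without no treatment 3. Without ADI-PEG20 1 and no treatment 2, the differences were -6.91 for Myh4, -3.14 for Myh8, -2.93 for Myh2 and -2.46 for Myh7. Those of Myh1, Myh13 and Myh3 were then -2.08, -1.97 and -0.64, and no chain passed adjustment. No treatment 2 was the lowest untreated tumor in Myh4, Myh8, Myh2, Myh1 and Myh13.

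Against ADI-PEG20 alone, the combination was again lower in all 7 chains, as in 48.9% of all genes (median -1.87, beside 0.01 over all genes). Myh8 differed by -2.55 (SE 0.86) and Myh7 by -2.77 (SE 1.14), with an adjusted p of 0.89 for each in limma. These 2 of 7, with unadjusted p under 0.05, stand beside 3.42% of all genes with unadjusted p under 0.05. No member had groups that did not overlap, where 9.16% of all genes had. Much of the size rested on ADI-PEG20 1: without that library the differences were -1.03 for Myh7, -1.63 for Myh4 (-4.36 with it), -1.004 for Myh3 (-1.87 with it), -0.63 for Myh2 (-1.80 with it) and -0.19 for Myh1 (-1.21 with it). Myh8 differed by -1.93 without it, and by -1.60 without ADI-PEG20 plus chloroquine 1. Myh13 differed by -0.21 (SE 0.61), and by 0.27 without ADI-PEG20 1. It was at 0.11 in the authors' deposited table. The 3 comparisons of the combination share its libraries, so their directions are not independent.

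Chloroquine alone against no treatment gave 1 of 7 members with unadjusted p under 0.05, beside 3.4% of all genes. That member was Myh3, which averaged 7.77 ± 0.68 log2 CPM in chloroquine tumors and 4.92 ± 2.85 in untreated tumors (SD, n = 3 each). The difference was 2.85 (SE 1.13), or 7.23-fold higher, with limma's adjusted p = 1. The groups overlapped, since no treatment 3 was at 7.91, and the difference was 4.35 without that library and 1.52 without no treatment 1. The other 6 chains differed by -0.58 (Myh4) to 1.30 (Myh1), with a median over the 7 of 0.36. No member had groups that did not overlap, where 7.41% of all genes had. Of the 13 genes of developing muscle, 11 were higher and 2 had unadjusted p under 0.05 (median 0.86), the embryonic light chain Myl4 (1.99) and Mymk, which cells need to fuse into fibres (2.84). Of the 11 myogenic regulators, 7 were higher and 3 had unadjusted p under 0.05, Myog (2.47) among them, with a median of 0.06. All of these had an adjusted p of 1 in limma.

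ADI-PEG20 alone against no treatment gave 0 of 7 members with unadjusted p under 0.05, beside 8.31% of all genes, and 0 with groups that did not overlap, beside 10.1%. Differences ran from -0.999 (Myh13, SE 0.61) to 1.38 (Myh3, SE 1.13), with a median of -0.14. The 95% limits were wide. They ran from -5.44 to 4.81 for Myh4, so changes of several fold in either direction were not excluded for that chain. For Myh3 they ran from -1.05 to 3.82, wider toward higher values, and for Myh13 from -2.32 to 0.32, wider toward lower values. Directions depended on single tumors: the Myh4 difference was -0.31 with all libraries and ran from -3.05 to 2.22 when 1 library was left out. Leaving out ADI-PEG20 1 and no treatment 2 drops 1 tumor very high in Myh4 (10.02 log2 CPM) but keeps the other, no treatment 1 (9.93). Without ADI-PEG20 1 and no treatment 2, the differences were -5.28 for Myh4, -2.30 for Myh2, -2.24 for Myh13 and -1.89 for Myh1. Those of Myh7, Myh8 and Myh3 were then -1.43, -1.21 and 0.36, and no chain passed adjustment. In the authors' deposited table for this comparison, Myh13 (-1.64) had unadjusted p under 0.05, with an adjusted p of 0.86. Myh1 was at -0.72 there, against 0.49 here.

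The interaction is the effect of chloroquine with ADI-PEG20 minus its effect without. It was negative for all 7 chains, as for 49.6% of all genes (median -2.51, beside 0.00 over all genes). Myh3 had an interaction of -4.72 (SE 1.60) and Myh8 of -3.67 (SE 1.22), with an adjusted p of 0.82 for both in limma. These were the 2 of 7 members with unadjusted p under 0.05, and they stand beside 4.26% of all genes. Without ADI-PEG20 1 and no treatment 2, the interactions were -3.70 for Myh3, -2.60 for Myh8 and -1.03 for Myh7. Those of Myh1 and Myh2 were then -0.13 and -0.0059, and those of Myh4 and Myh13 were positive, at 1.19 and 0.84. Of the 11 myogenic regulators, 7 had negative interactions, with a median of -0.33, and of the 13 genes of developing muscle 12 had, with a median of -2.30.

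Taking the 6 libraries with ADI-PEG20 against the 6 without, all 7 chains were lower with the drug, as were 50.7% of all genes (median -1.23, beside 0.00 over all genes). Myh8 averaged 1.72 log2 CPM with ADI-PEG20 and 3.69 without, a difference of -1.97 (SE 0.61), and Myh13 averaged 2.08 with it and 3.28 without, a difference of -1.20 (SE 0.43). Their adjusted p in limma were 0.29 and 0.37. These 2 of 7 stand beside 9.8% of all genes with unadjusted p under 0.05. The pooled values average over tumors with and without chloroquine. Myh8 differed by -0.14 for ADI-PEG20 against no treatment and by -3.80 for the combination against chloroquine. For Myh13 these differences were -0.999 and -1.41. With ADI-PEG20 alone, 5 of 7 chains were lower than in untreated tumors, and Myh3 (1.38) and Myh1 (0.49) were higher. Without ADI-PEG20 1 and no treatment 2, the libraries highest in Gm26917, Myh1 (-1.96) and Myh13 (-1.82) passed in limma with adjusted p of 0.023 and 0.018, among 144 genes called. Of the libraries with ADI-PEG20, ADI-PEG20 1 was the highest in Myh1 (7.95 log2 CPM) and Myh13 (3.15). Of those without it, no treatment 2 was the lowest in both (2.71 and 1.66). Leaving out these 2 libraries therefore widens both differences by construction, and the calls are no separate support for them. Taking the 6 libraries with chloroquine against the 6 without, 0 of 7 members had unadjusted p under 0.05, beside 2.23% of all genes.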

How the data were processed

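Per the submitters' processing notes, the tools were STAR 2.5.1a, Salmon 0.8.2, limma, edgeR, bcl2fastq and featureCounts 1.4.6-p5 (from Subread), on build mm10, with no role stated for any. Per the labels, tumors were frozen and rRNA was removed from the extracted RNA. The authors deposited log2 CPM values for 16335 genes (16386 lines, of which 51 repeat a gene and were dropped). Adding 0.5 reads and scaling made those values: 100% of values under 2000 reads came within 0.02 of a whole read. The lowest gene total was 85 reads, so low genes had been removed and no filter was added. The same deposited table holds log2 fold changes, p-values and adjusted p-values for the authors' comparisons; its signed linear fold ratio (a score) and the authors' deposited gene set results were not used here.

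Differences were fitted on the deposited log2 CPM with limma 3.58.1 (trend) in R 4.3.3, all 12 libraries in 1 fit, two-sided, adjusted over 16335 genes at 0.05, and the code was tested on simulated data. The planned edgeR and DESeq2 fits were not run. Shares used recovered reads per coding length (GENCODE M21, Python 3.11.15). Named genes were the members, at most 2 genes of smallest p per list and comparison, the 3 closest profiles, and the other heavy chains of the class; further genes named for a level stand among these. Samples were grouped by the treatment label. The members and gene lists were chosen with earlier results of these data known. Alternatives were other scalings, a low filter, more added reads, voom fits, a replicate block and left-out libraries. Same-numbered samples were not treated as pairs.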

Additional observations from a re-analysis of the deposited data

Results flagged for a closer look

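In 3 of 7 chains, every chloroquine library lay above the mean of untreated tumors, while every combination library lay below the mean of ADI-PEG20 tumors, so that the libraries given chloroquine lay on opposite sides with and without ADI-PEG20. Of all genes, 5.72% had this pattern and 11.8% had it in either direction. For Myh3, combination tumors were -2.51 to -1.03 from the ADI-PEG20 mean on the log2 scale, and chloroquine tumors 2.08 to 3.34 from the untreated mean; the interaction was -4.72 (limma, adjusted p = 0.82). For Myh8 the distances were -4.45 to -0.39 with ADI-PEG20 and 0.56 to 1.67 without, with an interaction of -3.67 (limma, adjusted p = 0.82). For Myh1 they were -1.69 to -0.95 with ADI-PEG20 and 0.58 to 1.82 without, with an interaction of -2.51 (limma, adjusted p = 0.82). Without no treatment 2 the Myh1 interaction was -1.16, and without ADI-PEG20 1 and no treatment 2 it was -0.13, with chloroquine at -0.0525 from no treatment. None of the 3 interactions passed adjustment. The pattern compares libraries with group means only. In all 3 chains, single libraries of chloroquine and untreated tumors overlapped, as did those of combination and ADI-PEG20 tumors. For Myh1, no treatment 3 (7.52 log2 CPM) lay above every chloroquine tumor.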

How the results depend on the processing

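All comparisons gave 0 genes and 0 members past an adjusted p of 0.05 with all libraries in limma. Calls arose under some alternatives; beyond what their construction changes (fewer libraries, other weights), the cause was not tested. Limited to the compared groups, the combination against chloroquine gave 72 genes and 2 members, and with voom library weights 1 gene. Without ADI-PEG20 1 and no treatment 2, ADI-PEG20 given against not given had 144 genes and 2 members, and the combination against no treatment 17 genes. Without ADI-PEG20 1 and no treatment 1, the 2 libraries highest in Myh4 (chosen after seeing the data), these counts were 24 and 6 genes. Voom library weights gave 47 genes for ADI-PEG20 given against not given. With the replicate number as a block (replicate block), that comparison had 31 genes and the combination against no treatment 8, with 0 members; same-numbered libraries correlated at -0.05 to 0.20, over 0.1 in 9 of 18 pairs, so the numbers were not taken as pairs. Leaving out 1 library at a time gave 0 to 1 genes for ADI-PEG20 against no treatment and 0 to 19 for ADI-PEG20 given against not given.

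Directions turned in some member differences, none of them called. The member differences for chloroquine given against not given are left out of this account. With all libraries, those of Myh1 and Myh13 lay near 0, at 0.042 and -0.0058, so their directions are not settled. With voom library weights, Myh1 was at -0.84 for ADI-PEG20 against no treatment, Myh2 at -0.44 and Myh13 at -0.0589 for chloroquine against no treatment, and Myh13 at 0.14 for the combination against ADI-PEG20 and 0.20 for the interaction. Without ADI-PEG20 1 and no treatment 2, Myh1 was at -1.89 for ADI-PEG20 against no treatment. For chloroquine against no treatment, Myh1, Myh2 and Myh13 were then at -0.0525, -0.62 and -0.56, Myh13 at 0.27 for the combination against ADI-PEG20, and the interactions of Myh4 and Myh13 at 1.19 and 0.84. Without ADI-PEG20 1 and no treatment 1, Myh3 and Myh1 were at -0.82 and -0.24 for ADI-PEG20 against no treatment, Myh4 at 1.95 for chloroquine against no treatment, and Myh13 at 0.27 for the combination against ADI-PEG20.

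With 1 library left out, the ADI-PEG20 difference from no treatment ran from -0.76 to 0.44 for Myh8, -0.86 to 1.54 for Myh1, -1.32 to 0.73 for Myh2, -3.05 to 2.22 for Myh4 and -1.85 to 0.91 for Myh7. Chloroquine differed from no treatment by -0.0525 to 2.35 for Myh1, -0.80 to 1.25 for Myh2, -2.82 to 1.95 for Myh4 and -0.56 to 0.87 for Myh13. The combination differed from no treatment by -1.82 to 1.01 for Myh3 and -2.08 to 0.33 for Myh1, and from ADI-PEG20 by -0.63 to 0.27 for Myh13. The interaction of Myh13 ran from -1.08 to 0.35. In the combination against chloroquine no member turned direction in any alternative run. Shares of reads moved by less than the spread between libraries without scaling to length or with exon length (added after seeing the data). The edgeR and DESeq2 alternatives were not run; the filter at 1 log2 CPM removed Myh7.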
